A study of Mus musculus with 25 samples.

Results

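These are 1972 regions of the mouse genome that carried trimethylated lysine 79 of histone H3 (H3K79me3) in both wild-type (WT) libraries of mouse embryonic stem cells (mESCs), carried no H3K79me2 region shared by the WT libraries, and had no H3K79me3 peak in either Dot1L knockout (KO) library. They were chosen by those peak lists. H3K79me3 peaks of WT1 and WT2 were merged where they shared at least 1 bp, merged regions with a peak of both lists were kept, the same was done for H3K79me2, and overlaps were then removed. They make up 39.8% of the 4952 H3K79me3 regions that both WT lists hold. Another 2754 of these regions overlapped shared H3K79me2 and no KO peak, 210 overlapped a KO H3K79me3 peak and no H3K79me2, and 16 overlapped both.

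The mESCs were of the v6.5 strain. Chromatin immunoprecipitation (ChIP) used the antibodies ab3594 for H3K79me2 and ab2621 for H3K79me3, with 2 WT and 2 Dot1L KO libraries per mark, and RNA was sequenced from 3 WT and 2 KO libraries of the same strain. Embryo RNA came from 8-cell embryos of B6D2F1 and Cast/EiJ parents, wild type, given DMSO (2 libraries) or the Dot1L inhibitor SGC0946 (2 libraries), in pools of 30 to 35 embryos taken 56 hours after fertilization. The labels say neither how the KO was made, nor how many clones it comes from, nor whether replicates are separate cultures, so p-values measure only the spread between these libraries. H3K79me2 and H3K79me3 were not measured in embryos, so members were carried over to embryo genes by position alone.

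Dot1L is the only known enzyme of mammals that methylates lysine 79 of histone H3, and it adds methyl groups one after the other, so that trimethylation follows dimethylation on the same residue. In mammalian cells both marks are known for lying over the first part of transcribed genes, where Dot1L travels with elongation factors of the Mllt and Aff families. Loss of Dot1L is known to be lethal to mouse embryos, while mESCs without it can be grown.

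The sequences that follow show where members met annotated starts and small RNAs. Of 1005 miRNA hairpins in the RefSeq table (GRCm38.p6), 5 overlapped a member, all 5 by their whole length, and all 5 belong to the miR-290 cluster on chromosome 7, whose miRNAs are known for their abundance in mouse embryonic stem cells and early embryos. The hairpins are Mir290a, Mir290b, Mir292, Mir292b and Mir291b. Mir291a is a gene inside a member too, with both mature arms, but has no hairpin entry in the table. Of the 11 mature miRNAs inside the members, those of miR-290b and miR-292b, which lie on the opposite strand of miR-290a and miR-292 and have other seeds, are not printed. The others are printed 5′ to 3′ with the seed, bases 2 to 8, in capitals, because members of the cluster with the same seed are read as 1 family. This locus was singled out after its peaks were seen. The 3p arms begin as follows.
mmu-miR-290a-3p: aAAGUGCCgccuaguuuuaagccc
mmu-miR-291a-3p: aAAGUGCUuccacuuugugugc
mmu-miR-291b-3p: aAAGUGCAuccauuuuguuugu

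The 5p arms of miR-290a and miR-292a share 1 seed, and those of miR-291a and miR-291b share another.
mmu-miR-290a-5p: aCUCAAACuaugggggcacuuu
mmu-miR-292a-5p: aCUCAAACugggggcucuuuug
mmu-miR-291a-5p: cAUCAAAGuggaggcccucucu
mmu-miR-291b-5p: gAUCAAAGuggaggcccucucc

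The 3p seeds of miR-290a, miR-291a and miR-291b differ from one another in their last base. The seed of miR-291a-3p is that of 5 mature miRNAs in the table, including the 3p arms of miR-294 and miR-295, whose hairpins lay 1031 and 1163 bases outside the nearest member. Mir293 lay 733 bases outside it.

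The promoters printed next belong to D7Ertd143e, a gene annotated at that cluster, and to other genes whose RNA is described below. Each is a RefSeq window from 250 bases before to 50 bases after the start, read on the gene's own strand, GRCm38.p6, with CpG dinucleotides in capitals. They are chr7:3218534-3218833 (plus strand) for D7Ertd143e, chr13:119488223-119488522 (plus strand) for Tmem267, chr15:79505192-79505491 (minus strand) for Kcnj4, chr14:79301586-79301885 (minus strand) for Rgcc and chr4:63495942-63496241 (minus strand) for Whrn, a gene whose window a member only grazed. Rgcc and Kcnj4 were added after their values were seen.
D7Ertd143e: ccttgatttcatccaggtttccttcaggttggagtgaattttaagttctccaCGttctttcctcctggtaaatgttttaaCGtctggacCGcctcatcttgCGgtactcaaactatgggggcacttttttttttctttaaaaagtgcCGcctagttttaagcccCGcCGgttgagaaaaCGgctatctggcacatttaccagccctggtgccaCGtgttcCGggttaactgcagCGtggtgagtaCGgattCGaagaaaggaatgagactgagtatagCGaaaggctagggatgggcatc
Tmem267: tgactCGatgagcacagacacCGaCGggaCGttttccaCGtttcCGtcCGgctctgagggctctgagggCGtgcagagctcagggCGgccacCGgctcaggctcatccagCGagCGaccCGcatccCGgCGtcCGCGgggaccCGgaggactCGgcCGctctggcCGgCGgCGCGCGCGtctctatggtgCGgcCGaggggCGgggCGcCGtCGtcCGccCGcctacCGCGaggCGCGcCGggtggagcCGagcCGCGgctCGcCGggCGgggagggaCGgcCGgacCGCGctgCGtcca
Kcnj4: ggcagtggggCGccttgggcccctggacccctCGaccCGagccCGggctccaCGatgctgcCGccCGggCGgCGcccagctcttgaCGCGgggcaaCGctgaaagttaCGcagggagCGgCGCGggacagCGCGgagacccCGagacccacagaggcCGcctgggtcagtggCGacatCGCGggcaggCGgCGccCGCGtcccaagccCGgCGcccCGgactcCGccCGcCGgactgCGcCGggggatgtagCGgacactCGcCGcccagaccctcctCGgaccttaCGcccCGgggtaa
Rgcc: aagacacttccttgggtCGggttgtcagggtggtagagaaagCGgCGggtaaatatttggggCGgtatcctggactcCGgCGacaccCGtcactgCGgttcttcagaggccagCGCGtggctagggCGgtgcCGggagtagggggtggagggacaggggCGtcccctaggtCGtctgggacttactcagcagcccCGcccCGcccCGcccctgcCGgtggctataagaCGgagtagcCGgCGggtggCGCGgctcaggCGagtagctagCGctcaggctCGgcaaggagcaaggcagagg
Whrn: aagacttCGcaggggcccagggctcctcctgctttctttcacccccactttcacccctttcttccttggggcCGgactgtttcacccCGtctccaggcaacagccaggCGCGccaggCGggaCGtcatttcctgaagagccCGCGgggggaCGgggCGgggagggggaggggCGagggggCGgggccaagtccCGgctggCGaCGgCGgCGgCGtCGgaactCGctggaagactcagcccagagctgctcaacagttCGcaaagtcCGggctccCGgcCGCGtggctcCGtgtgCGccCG

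The windows of Kcnj4 and Tmem267 lay inside a member over all 300 and over 207 bases, and held 41 and 50 CpG dinucleotides at a GC content of 76%. That of Rgcc, with 48 bases inside, held 26 CpG at 66.7% GC, and that of Whrn, with 10 bases inside, held 29 at 70% GC. The window of D7Ertd143e, with 290 bases inside, held 14 CpG at 47.7% GC, and the printed run contains the miR-290a hairpin, because the hairpin lies just upstream of this annotated start. Over all 46 windows that a member overlapped, from 45 genes, the median GC content was 70.7%, the median number of CpG 32.5, and the observed over expected CpG ratio 0.879. All 32817 windows of the table had medians of 52.7%, 7 and 0.383. The 168 windows overlapped by H3K79me3 regions with H3K79me2 had medians of 66.7%, 29 and 0.873. A CpG ratio of at least 0.6 was met by 82.6% of the windows at members, 82.1% of those at regions with H3K79me2 and 35.8% of all. The motif TATAAA on either strand stood in 1 of the 46 windows (2.17%), in 7.74% of those at regions with H3K79me2 and in 13.6% of all. A run of 6 or more units of CA, TG, AC or GT stood in 0 of the windows at members, in 0 of those at regions with H3K79me2 and in 1.06% of all.

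The members were short and of moderate height. Their length ran from 191 to 3727 bp with a median of 530 bp, against 880 bp for regions with H3K79me2. The authors' fold enrichment over background had a median of 4.15 in WT1 (1.42 to 8.36) and 4.30 in WT2 (1.37 to 8.83). In regions with H3K79me2 it was 4.91 and 4.64, with maxima of 18.1 and 16.2. These values chose the members, so they describe them and test nothing. In 91.2% of members each list held exactly 1 peak. The WT1 list held 19800 H3K79me3 peaks and the WT2 list 7338, so the WT2 list limits how many regions both hold. With WT1 lists alone the rule gave 11383 regions and with WT2 lists alone 3045. The KO lists held 178 and 328 H3K79me3 peaks and 16 and 12 H3K79me2 peaks, and no member overlapped a KO H3K79me2 peak.

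At the edge of the rule, the members nearest to shared H3K79me2 lay 32 bp from it in Cdh3, 39 bp in Mettl27 and 52 bp in Arhgef17. The regions that just failed it overlapped shared H3K79me2 by 1 bp in Foxn2, 20 bp in 6030426L16Rik and 45 bp in Tpt1. Most members lay far from that edge. The median distance to the nearest shared H3K79me2 region was 111 kb, 1016 members (51.5%) lay over 100 kb away and 255 (12.9%) within 5 kb. The rule removed only H3K79me2 found in both lists, and 92 members (4.67%, 95% Wilson interval 3.82 to 5.69%) overlapped an H3K79me2 peak of at least 1 list, 60 of WT1 and 39 of WT2.

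The share of members in genes was below that of regions with H3K79me2 and of regions with a KO peak, with 95% Wilson intervals that do not overlap. Of the 1972 members 906 (45.9%, 43.8 to 48.1%) overlapped an annotated gene body and 733 (37.2%, 35.1 to 39.3%) a protein-coding one. For regions with H3K79me2 the protein-coding share was 91.2% (90.1 to 92.2%), and for regions with a KO peak 48.6% (41.9 to 55.3%). For the 16 regions with both it was 56.2% (33.2 to 76.9%), an interval that contains that of the members. Regions are not replicates, and these binomial intervals cover counting error only. Exons, introns and UTRs were not told apart, because the annotation used here gives gene bodies only.

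Inside genes, a smaller share of members than of regions with H3K79me2 lay near the start. Over the 545 members in exactly 1 protein-coding gene of known strand, 29.7% lay in the first 25% of the gene, 51.2% in its first 50% and 21.5% in its first 5 kb, at a median of 24.3 kb from the start, in genes with a median length of 65.2 kb. Of 1983 such regions with H3K79me2, 66.9% lay in the first 25% and 64.2% in the first 5 kb, at a median of 2.78 kb, in genes with a median length of 28.2 kb. A gene start lay within 5 kb of 12.5% of members (11.1 to 14.0%) and of 58.4% of regions with H3K79me2 (56.5 to 60.2%). Only 42 members (2.13%) overlapped a promoter window.

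**Figure D1:**
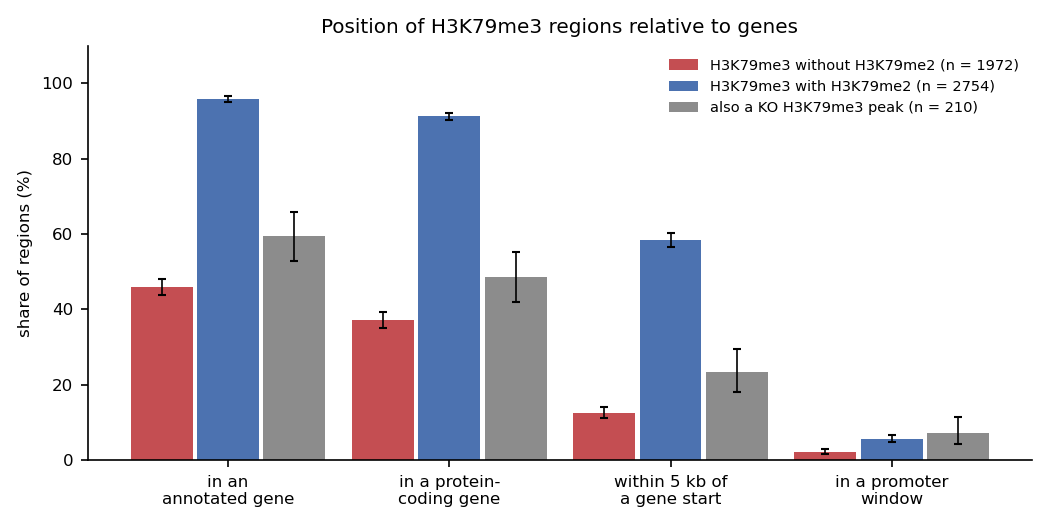
Share of H3K79me3 regions (vertical axis, percent) in 4 positions, for members (red), regions with H3K79me2 (blue) and regions with a KO H3K79me3 peak and no H3K79me2 (grey); error bars are 95% Wilson intervals. Members stood at 37.2% in protein-coding genes against 91.2% for regions with H3K79me2.

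Some members came in groups, and grouping was not measured for other H3K79me3 regions. Joining members less than 100 kb apart gave 1369 groups, of which 1035 held a single member, while 937 members (47.5%) shared a group with another and 23 groups held at least 5. Chromosome 8 carried the most, 208 members, followed by chromosome 4 with 171, and 120 lay on X and 27 on Y. Chromosomes 8 and 4 also held the most shared H3K79me3 regions, 463 and 458, of which members made up 44.9% and 37.3%. On X members were 56.1% of 214 regions, and on Y 48.2% of 56.

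The largest group was the array of 5S ribosomal RNA genes, which encode the small RNA of the large ribosomal subunit that RNA polymerase III makes. It held 49 members over 85.6 kb at chr8:123538568-123624154 (mm10), with no shared H3K79me2 region and no H3K79me2 peak of either WT list. All 48 rRNA genes annotated on chromosome 8 lay there, and 33 of them held a member. Members covered 41.3 kb, or 48.2% of the span, and whether they met rRNA genes more often than other placements would was not tested. The span held 57 shared H3K79me3 regions, of which the 8 that were not members overlapped a KO peak. The members were spaced by a median of 1522 bp and the rRNA genes, each 119 to 121 bp long, by 1698 bp. Members over an rRNA gene had a median enrichment of 4.82 in WT1 and 3.95 in WT2, and the 16 others had 3.40 and 3.76. The WT lists placed 75 and 78 H3K79me3 peaks in the span, and the KO lists placed 5 and 4. The copies of a repeat array are alike in sequence, and how reads matching several copies were placed is not given in the sources used here, so the place of single peaks in it is uncertain. Without the 49 members of the array the protein-coding share of the remaining 1923 was 38.1%.

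The second group held 17 members at chrY:90729839-90844213, near Mid1-ps1, in a span of 41 shared H3K79me3 regions and 6 of H3K79me2. It also held 20 and 16 KO H3K79me3 peaks, so KO peaks lay among these members. The third held 13 members at chr4:147204444-147470853 over the zinc finger genes Zfp978, Zfp988 and Zfp982, among 36 shared H3K79me2 regions and with 1 KO peak. In 4 further groups there were 12 members each. Those at chr10:83379424-83473616, where no gene is annotated, and at chr6:47655622-47778209 held no shared H3K79me2 region and no KO peak. Both others lay on chromosome 4 over Zfp990 and Zfp980 and over Zfp534, Zfp984 and Zfp933, with 28 and 22 shared H3K79me2 regions between the members.

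**Figure D2:**
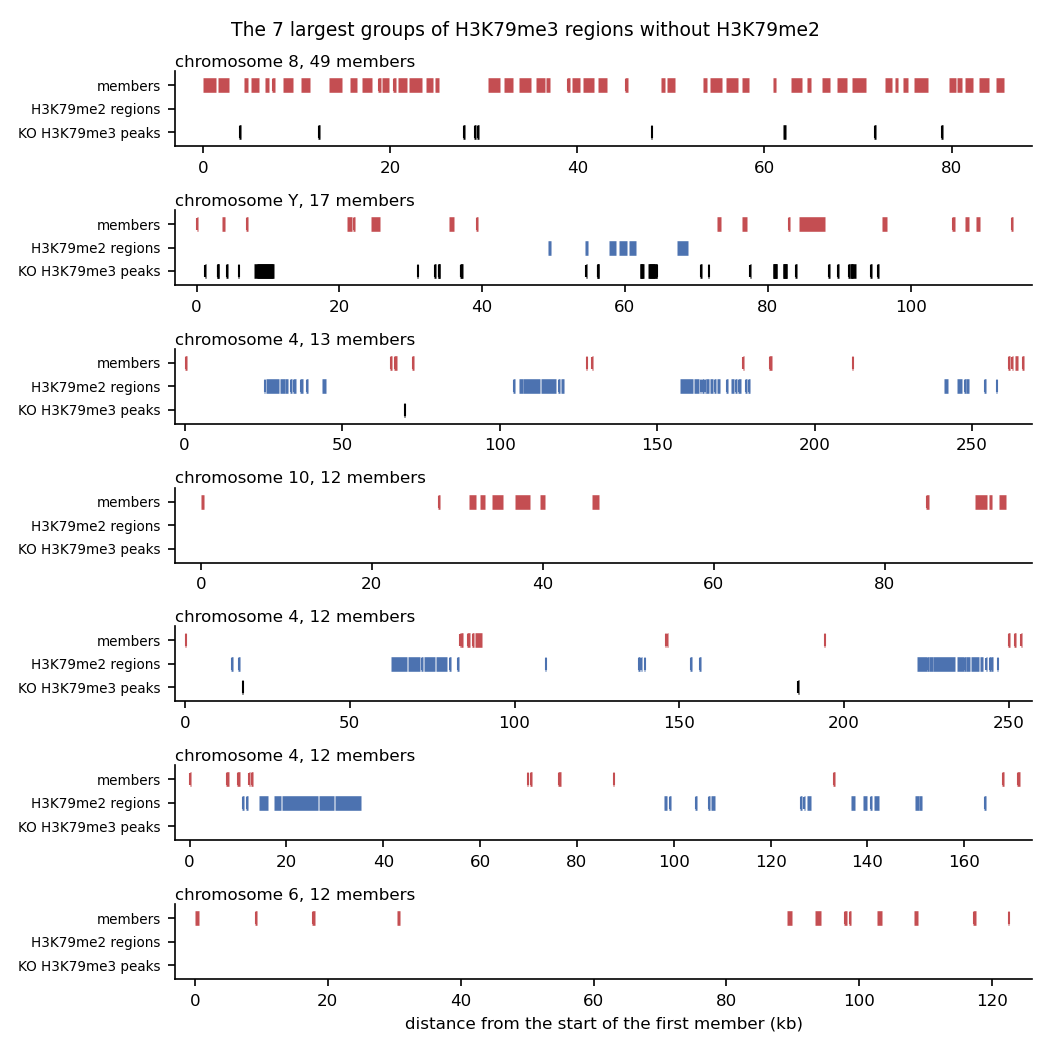
Members (red), shared H3K79me2 regions (blue) and H3K79me3 peaks of KO1 and KO2 (black) in the 7 largest groups, by distance in kb from the first member, 1 panel per group. The array on chromosome 8 holds 49 members and no H3K79me2, and the groups on chromosome 4 hold H3K79me2 regions between the members.

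Single members that stood out by their weaker −log10 q of the WT lists lay at chrX:170009281-170009876 (30.5), 1.10 kb from a KO peak, at chrY:90736778-90737043 (22.7), 0.827 kb from one, and at chr4:118547623-118548715 in Gm40237 (18.8). The next were at chr2:36299602-36300203 (17.3) and chr6:47777976-47778209 (16.8), in no annotated gene. The member on X lay in a group of 10 at chrX:169974759-170013419, near Mid1 and Erdr1, where each KO list placed 5 H3K79me3 peaks. The member on Y lay in the second group above, near Mid1-ps1. How reads that match both groups were placed was not tested, so the place of single peaks in them is uncertain. The longest were 3727 bp at chr10:27821694-27825420, 3619 bp at chrY:90814234-90817852 and 3118 bp at chr4:55001270-55004387 in Zfp462, a zinc finger gene of stem cells. The longest member of all lay outside genes, 251 kb from H3K79me2, while that in Zfp462 lay 4.19 kb from it.

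At the miR-290 cluster, the first member (chr7:3218058-3218823, 766 bp) ran from 0.727 kb before the D7Ertd143e start to 0.039 kb after it, with enrichments of 3.97 in WT1 and 5.69 in WT2. The second (chr7:3218858-3219609, 752 bp) followed after a short gap, with 4.11 and 4.54. Each WT list placed 3 H3K79me3 peaks over the pair, and the shared H3K79me2 region nearest to them ended 783 bases before the first. D7Ertd143e had 687 and 456 counts in the DMSO embryo libraries and 521 and 466 in the inhibitor libraries, so the groups overlapped, and its log2 fold change of -0.32 (SE 0.32) had an edgeR adjusted p of 0.872. It was not among the genes of the mESC table, and mature miRNAs were not measured. Nlrp12, whose annotated body spans the cluster, had 97.8, 92.2 and 86.3 CPM (read counts scaled to library size) in WT and 96.0 and 107 in KO mESCs, which overlap, and was not called (edgeR adjusted p = 0.0736), though 3 of the other fits called it.

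**Figure D3:**
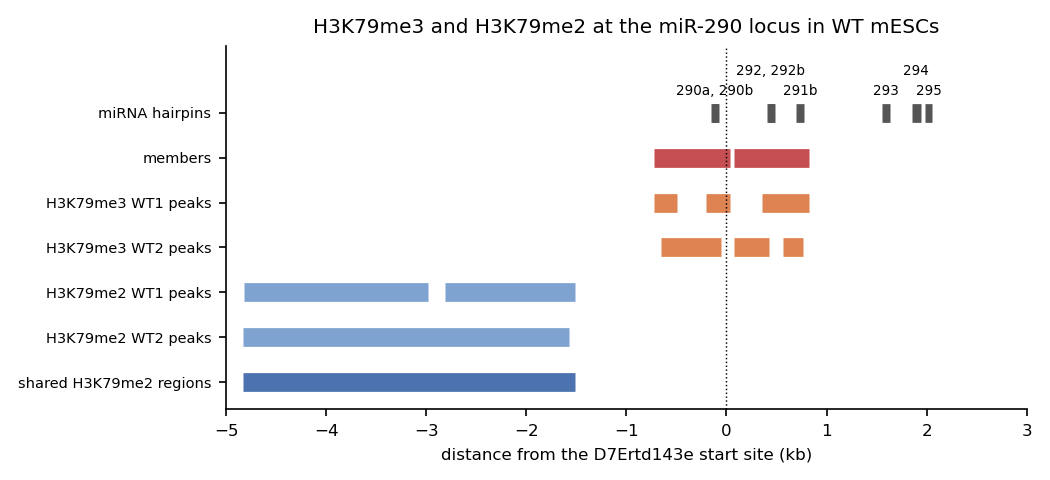
Members, H3K79me3 peaks and H3K79me2 peaks of each WT list and miRNA hairpins at the miR-290 cluster, by distance in kb from the D7Ertd143e start site (dotted line). The members cover the hairpins up to 291b, the hairpins 293 to 295 lie outside them, and H3K79me2 ends 783 bases before the first member.

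In all, 710 annotated genes held a member in their body. They were 513 protein-coding genes, 91 lncRNA genes, 51 pseudogenes, 33 rRNA genes, 6 miRNA genes and others, and 249 of the 710 also held a shared H3K79me2 region. Zinc finger genes named Zfp, many of them KRAB zinc finger proteins known for silencing retrotransposons, made up 31 of the 710 (4.37%) against 0.839% of annotated genes, and held 76 members. No ribosomal protein gene and no tRNA gene held one. Of 218 homeobox, Sox, Fox, Wnt and other developmental regulators, a list made after the values were seen, 19 held a member, 17 of them without shared H3K79me2. The 19 were 2.68% of the 710, and the 218 were 0.436% of annotated genes. Among the 19 were the homeobox genes Dlx3, Dlx5, Hoxa3, Hoxa5 and Hoxd8, the Sox genes Sox6 and Sox21 and the POU genes Pou3f1 and Pou3f3. The member in Pou3f1 was 2541 bp long with enrichments of 7.64 and 5.29.

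RNA of mESCs was compared between KO and WT. Totals were 26860527 to 33755064 estimated counts per library. Dot1l itself, the gene removed, read 104, 96.9 and 99.2 CPM in WT and 81.4 and 71.5 CPM in KO, a log2 fold change of -0.39 (SE 0.06, edgeR adjusted p = 0.000161). The labels do not say which part of the gene was removed, so its level shows a decrease and not the absence of the enzyme. Of the mESC markers 4 of 6 fell, with summed levels of 3413 to 3450 CPM in WT and 2672 to 2810 in KO. Of the primitive endoderm markers 5 of 6 rose (17 to 19 and 43.4 to 49.9 CPM), of the feeder fibroblast markers 3 of 5 tested rose (151 to 194 and 194 to 241 CPM), and of the trophoblast markers 3 rose and 2 fell (118 to 123 and 106 to 110 CPM). None of these marker genes held a member, and their part in the results that follow was not tested. In bulk RNA, fewer cells of a type and less RNA per cell cannot be told apart.

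Genes holding a member changed in both directions, more often upward where they held no shared H3K79me2 and downward where they held it. Of the 710 genes 518 matched the mESC table and 463 passed the filter on low counts. Among those 463, 262 (56.6%) were called at an adjusted p under 0.05, against a background of 43.9% of all 19532 tested genes. Higher in KO were 128 (27.6%, background 22.3%) and lower 134 (28.9%, background 21.6%), with a median log2 fold change of 0.02 against 0.00 for all tested genes. Of the 250 member genes without shared H3K79me2, 90 (36.0%) were higher and 37 (14.8%) lower, with a median of 0.22. Of the 213 with H3K79me2, 38 (17.8%) were higher and 97 (45.5%) lower, with a median of -0.09.

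Genes without a member went in the same directions when split by H3K79me2, so the split is not particular to member genes. Of 10452 genes with neither, 27% were higher and 12.6% lower, with a median of 0.10, and of 7705 genes with H3K79me2 and no member 17.4% were higher and 33.8% lower, with a median of -0.06. These shares are a description, and no difference between the classes was tested. Members on X lay in 12 tested genes, of which 10 were lower and 0 higher, where 60.2% of all 744 tested X genes were lower.

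**Figure D4:**
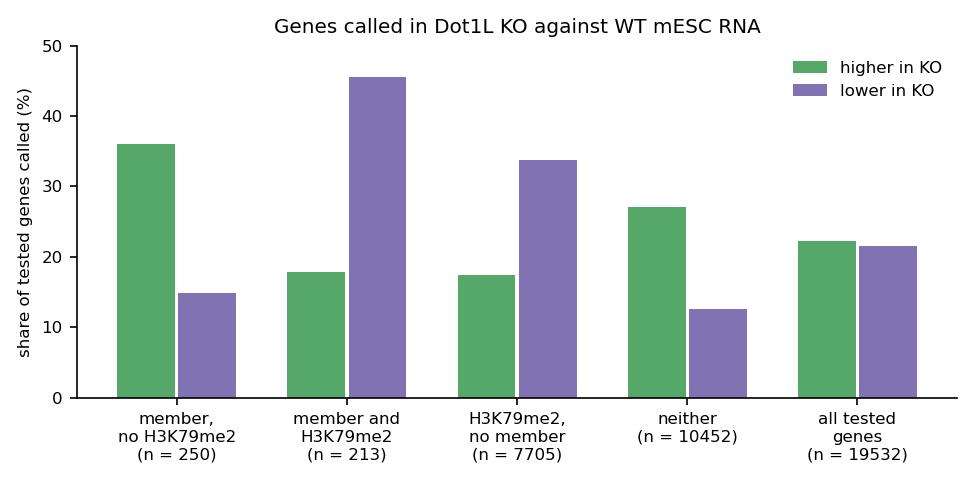
Share of tested genes (vertical axis, percent) called higher (green) or lower (purple) in KO mESC RNA at an edgeR adjusted p under 0.05, for genes split by member and shared H3K79me2, with the number tested. Member genes without H3K79me2 were higher in 36.0% and lower in 14.8% of cases, and those with H3K79me2 higher in 17.8% and lower in 45.5%. Genes with neither were higher in 27% and lower in 12.6%, and those with H3K79me2 and no member higher in 17.4% and lower in 33.8%.

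Of the 8 member genes with the largest rises, 5 carried no shared H3K79me2. Dlx3, a homeobox factor of placenta and epidermis, read 1.34, 2.12 and 1.84 CPM in WT and 8.71 and 6.01 in KO, a rise of 2.04 on the log2 scale (SE 0.20, edgeR adjusted p = 3.4e-06). It held 2 members, at chr11:95120173-95121078 and chr11:95121216-95121987, 45.0 and 46.1 kb from H3K79me2. Adm, which encodes the vasodilator peptide adrenomedullin, read 3.04, 3.44 and 2.72 CPM in WT and 12.9 and 9.43 in KO (log2 fold change 1.85, SE 0.15, edgeR adjusted p = 6.0e-07). Its member of 1186 bp lay at chr7:110628564-110629749. Egln3, a prolyl hydroxylase that marks hypoxia-inducible factors for decay, read 37.1, 38.5 and 33.8 CPM in WT and 123 and 105 in KO (1.64, SE 0.07, edgeR adjusted p = 2.3e-09). Bhlhe40, a basic helix-loop-helix repressor of the clock and of hypoxia responses, read 38.5, 36.8 and 31.9 CPM in WT and 120 and 89.6 in KO (1.55, SE 0.10, edgeR adjusted p = 9.7e-08). Nxph4, a secreted neurexin ligand, read 3.55, 3.47 and 3.27 CPM in WT and 11.2 and 7.57 in KO (1.45, SE 0.16). Egln3, Bhlhe40 and Nxph4 are the 3 of the 8 with shared H3K79me2 in the gene body, and their members lay 0.372 to 3.52 kb from it.

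The other 3 of the 8 had a member in the promoter window, whose sequence is printed above. In Rgcc the 48 window bases inside the member all lay after the start, so no base before the start was covered. Kcnj4, an inwardly rectifying potassium channel, read 2.25, 1.60 and 1.84 CPM in WT and 4.88 and 5.14 in KO (log2 fold change 1.41, SE 0.17, edgeR adjusted p = 2.1e-05). Tmem267, a transmembrane protein, read 3.19, 3.57 and 3.97 CPM in WT and 9.38 and 9.59 in KO (1.41, SE 0.12, edgeR adjusted p = 8.1e-07). Its promoter member, at chr13:119488316-119489338, had the highest WT1 enrichment of all members, 8.36, with 4.87 in WT2. Rgcc, a regulator of the cell cycle, read 0.435, 0.830 and 0.696 CPM in WT and 1.69 and 1.82 in KO (1.40, SE 0.27, edgeR adjusted p = 0.00102). Genes were named only where the WT and KO groups did not overlap, so that separation is set by the choice. Rgcc met the minimum mean of 1 CPM through its KO libraries (1.75 CPM on average, against 0.654 in WT).

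Most of the 28 tested genes with a member in the promoter window carried no shared H3K79me2. Of genes with neither a member nor shared H3K79me2, 27% were higher and 12.6% lower, with a median log2 fold change of 0.10. Of the 28, 10 (35.7%) were higher and 2 (7.14%) lower, with a median of 0.14, beside backgrounds of 22.3% and 21.6%. Besides the 3 above, the higher ones, named after their values were seen, were Cacna1b, Trank1, Efna3, Rspo1, Foxj2, Tdrd7 and H2-Q6. Cacna1b, the pore of N-type calcium channels, read 12.0, 12.5 and 11.6 CPM in WT and 25.6 and 22.9 in KO (log2 fold change 1.01). Trank1 read 8.23, 9.59 and 8.32 CPM in WT and 17.7 and 15.1 in KO (0.91), and Efna3, an ephrin ligand, 6.63, 7.04 and 6.44 against 11.1 and 9.72 (0.63). H2-Q6 belongs to a family of near-identical class I genes that share reads, so its value (1.31) is uncertain. The lower ones were Htra1, a secreted serine protease, with 16.2, 16.6 and 15.2 CPM in WT and 7.59 and 6.83 in KO (-1.15, SE 0.09), and Pgbd5 (-0.38), which alone of the 12 carried H3K79me2 in its body. Whrn, with 10 promoter bases in a member, had a log2 fold change of 0.12 (SE 0.10, edgeR adjusted p = 0.378), and Nkx2-1, with 31 bases in a member, -0.46 (SE 0.33).

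The 8 largest falls were all zinc finger genes of chromosome 4, and all carried shared H3K79me2 beside the member. Zfp981 read 336, 362 and 343 CPM in WT and 63.6 and 66.8 in KO (log2 fold change -2.41, SE 0.05, edgeR adjusted p = 1.0e-11). Rex2 read 617, 658 and 624 CPM in WT and 122 and 141 in KO (-2.26, SE 0.06). Zfp600 read 231, 254 and 235 CPM in WT and 49.1 and 55.3 in KO (-2.20, SE 0.06). Zfp978, which held 8 members, read 158, 167 and 163 CPM in WT and 35.1 and 41.4 in KO (-2.09, SE 0.07). Zfp534, Zfp980, Zfp990 and Zfp988 had log2 fold changes of -1.70, -1.67, -1.51 and -1.46. Some of these genes share members: both members of Zfp988 are also counted for Zfp978, and the single members of Zfp981 and Rex2 also for Zfp993. Zinc finger genes of this cluster are known as a family of closely related copies. How reads that match several copies were counted was not tested here, so the level of each gene and the place of each peak are uncertain.

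Between 145 and 148 Mb of chromosome 4, whole-Mb bounds of its groups of 7 or more members chosen after the values were seen, 20 member genes were tested, of which 17 were lower and 0 higher, with a median of -1.34. All 66 tested genes of the stretch, which include these 20, had 40 lower and 4 higher and a median of -0.84. The share lower was 60.6% over the 66 and 85% over the 20, and genes of the stretch without a member were not summarised apart. Without it, 443 member genes remained, 128 higher and 117 lower. Over all 30 tested member genes named Zfp, 21 were lower and 3 higher, with a median of -0.51, beside 109 lower and 59 higher and a median of -0.05 for the 367 tested Zfp genes without a member. Outside the stretch 9 of 18 Zfp member genes were lower and 3 higher, with a median of -0.15.

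**Figure D5:**
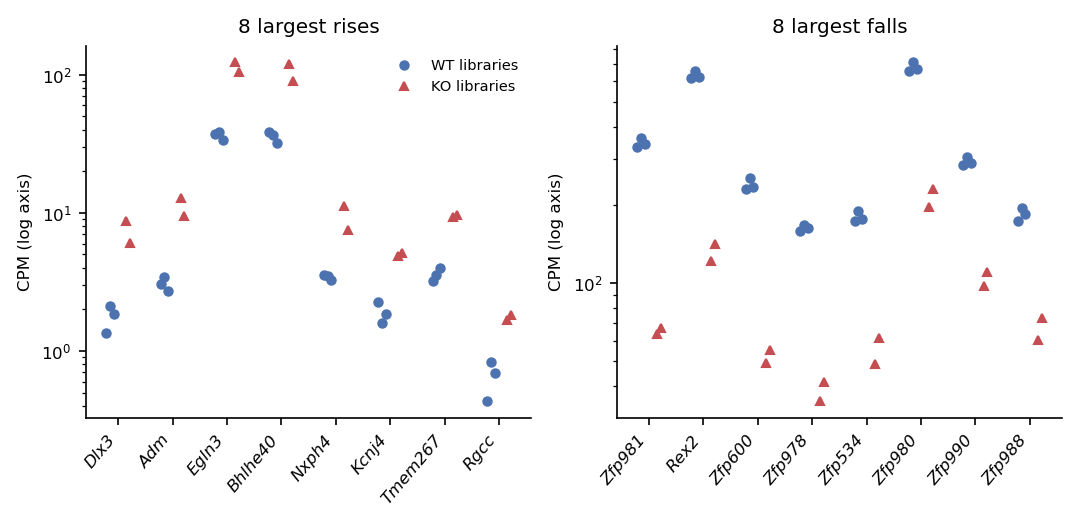
CPM (log axes) of the 8 member genes with the largest rises (left) and falls (right) in each WT (blue circles) and KO (red triangles) mESC library. The KO libraries lie outside the range of the WT libraries in all 16 genes, as the rule for naming them required.

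The 5 genes with the most members were Zfp978, described above, and 4 others. Zfp993 held 12 members, read 30.0, 28.2 and 31.8 CPM in WT and 13.7 and 16.4 in KO, and had a log2 fold change of -0.99 (SE 0.08, edgeR adjusted p = 8.0e-07). Gm3325 held 7 members and fell by 0.28 on the log2 scale (SE 0.06). Rapgef6, an exchange factor for Rap proteins, and Atg2b, a lipid transfer protein of autophagy, held 6 members each. Their log2 fold changes were -0.17 (edgeR adjusted p = 0.0339) and 0.16 (edgeR adjusted p = 0.0124). Both calls were lost in other fits: the adjusted p ranged from 0.00332 to 0.206 for Rapgef6 and from 0.00222 to 0.0745 for Atg2b. In Rapgef6 WT replicate 1, at 94.8 CPM, lay below KO replicate 1, at 95.3 CPM.

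Of the developmental regulators with a member, 15 were tested, of which 4 were higher and 3 lower, beside 33 higher and 27 lower of 168 without a member. The shares, 26.7% higher and 20% lower, are near the 22.3% and 21.6% of all tested genes. The higher ones were Dlx3, Foxj2, Hoxa5 and Hoxa3. Hoxa5 (0.676 CPM in WT and 1.20 in KO on average) and Hoxa3 (1.16 and 1.77) lost their calls in 5 and 6 of the other fits, and share 1 member. Foxj2 lost its call without KO replicate 1 (edgeR adjusted p = 0.132). The lower ones were Wnt7b, a secreted Wnt ligand, with 3.30, 3.26 and 3.41 CPM in WT and 1.83 and 1.95 in KO, the neural factor Sox21, with 3.33, 3.81 and 3.27 against 2.11 and 2.11, and Foxn2, with 96.5, 98.9 and 103 against 76.6 and 82.5. All 3 kept their calls in every fit run. The member in Wnt7b lay 0.25 kb from a KO H3K79me3 peak, and that in Sox21 14598 kb from the nearest.

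In 8-cell embryos no gene was called between inhibitor and DMSO in the main edgeR fit, a background of 0%. Of the 710 member genes 493 matched the table and 388 were tested, of which 0 were called, 43 (11.1%) had an unadjusted p under 0.05 beside 8.15% of all 14351 tested genes, and the median log2 fold change was 0.06. DESeq2 called 2 member genes of 125 in all. Totals were 24950199 to 32479590 counts per library. Without inhibitor replicate 2, leaving replicate 1 alone in that group, the median log2 fold change of member genes was 0.06. The lowest p of the member genes belonged to Sdc4, a cell surface proteoglycan, with 55.5 and 48.3 CPM in DMSO and 139 and 67.4 in inhibitor libraries (log2 fold change 0.99, SE 0.27, edgeR adjusted p = 0.332). Plxnd1, a semaphorin receptor, read 15.8 and 15.1 CPM in DMSO and 64.1 and 18.6 in inhibitor libraries (1.42, SE 0.42, edgeR adjusted p = 0.385), and Nup62cl 8.10 and 5.92 against 26.0 and 11.9 (1.43, SE 0.41). In these 3 the inhibitor libraries lay above DMSO but far from each other. Prmt5, an arginine methyltransferase, read 287 and 307 CPM in DMSO and 176 and 232 in inhibitor libraries (-0.54, SE 0.15, edgeR adjusted p = 0.346). Zmiz1 had a log2 fold change of -0.36 (SE 0.12) and Prelid2 of -0.83 (SE 0.29). The 11 tested member genes of the chromosome 4 stretch had a median of -0.04, and the 23 tested Zfp member genes one of -0.06. In simulated embryo libraries the test recovered 0.5% of 200 genes changed 2-fold over 14475 genes, with 1 coefficient of biological variation of 0.4 given to all genes. Genes with a smaller spread, such as Zmiz1, were fitted more precisely than that.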

How the data were processed

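Peaks were taken from the deposited lists, 1 per library. Per the submitters' processing notes the ChIP data were processed with Bowtie2 and MACS2 on mm10, the mESC RNA with kallisto (STAR and HTSeq are listed too for 4 of the 5 libraries) and the embryo RNA with STAR and HTSeq; versions, settings and the control used for peaks are not given in the sources used here. Each deposited list gives, per peak, the authors' score, fold enrichment (a ratio) and significance as −log10 p and −log10 q. The deposited mESC table holds estimated counts (expected counts) per gene, rounded here; the deposited embryo table holds whole counts.

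Members were found with Python 3.11.15. Gene bodies and promoter windows were those of RefSeq GRCm38.p6, whose promoter table lacks chromosome 18. Of the tested genes, 95.3% in mESCs and 99.5% in embryos matched that annotation. Each RNA table was fitted on its own in R 4.3.3 (edgeR 4.0.16) with filterByExpr, TMM scaling, the quasi-likelihood test and Benjamini-Hochberg adjustment over all genes tested, and called at an adjusted p under 0.05. CPM are counts scaled to library totals adjusted by TMM, and a standard error is that of the fit. Among mESC rows, 69 without a symbol held at most 0.0163% of counts. Scripts were tested on simulated data; at 2-fold the mESC design recovered 92.5% of 200 changed genes over 19453 genes, with 7% false calls.

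Named regions were the 5 with the highest weaker −log10 q, the 3 longest, the 3 largest groups and the 3 nearest on each side of the H3K79me2 rule. Named genes were the 8 largest rises and 8 largest falls in mESCs (mean level 1 CPM or more, no overlap between groups), the 3 lowest p per direction in embryos, the 5 with the most members and up to 6 with a member in the promoter window. Members and lists were chosen with earlier results of these data known. Columns without a sample numbered 0. Alternatives were DESeq2 1.42.0, other scalings and filters, a block on replicate number, leaving out each library, and other overlap rules. Intervals cover counting error only, as reads are not independent molecules.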

Additional observations from a re-analysis of the deposited data

How the results depend on the processing

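The number of members stayed within 1.5 times of 1972 under merging within 1 kb, a 50% overlap, a −log10 q of at least 2, autosomes only, without either KO list and with no H3K79me2 peak of either WT list. Without KO replicate 1 it was 2022, and without KO replicate 2 it was 2080. Without WT replicate 1 it was 3045, and without WT replicate 2 it was 11383. Leaving out a WT replicate dropped its H3K79me3 and H3K79me2 lists together, and a peak in both lists was then no longer required. The protein-coding share of members was 33.7% when merging within 1 kb and 35.1% with no H3K79me2 peak of either list, and 36.9 to 39.2% with 1 WT replicate. The share with an H3K79me2 peak of 1 list was 1.83% when merging within 1 kb and 2.5% at a 50% overlap; with the lists of 1 WT replicate no such share exists. For mESC RNA, 217 to 276 member genes were called in all settings but 1. The 217 were called by DESeq2 (42.7%, beside 22.4% of all tested genes). The 276 had a member within 2 kb of the gene body (56%, beside 43.9%). The remaining setting was the main fit read over only the 250 member genes without shared H3K79me2. Of these, 127 (50.8%) were called, with a median log2 fold change of 0.220 in place of 0.019, and the cause was not tested. The median over all tested member genes was -0.003 to 0.033 when leaving out 1 library. In embryos the member genes called were 2 in DESeq2, 5 without a filter and 0 to 18 without 1 library, the 18 resting on inhibitor replicate 1 alone, which is assumed to vary like the other group. With the replicate block 257 member genes were called in mESCs (55.5%, beside 41.8% of all tested genes) and 4 in embryos (1.03%, beside 1.19%). The deviations of libraries sharing a number had correlations of -0.026 to 0.0524. With 2 libraries per group the embryos give only 1 such value. These correlations cannot show whether the libraries were paired. Among the 16 largest rises and falls no call was lost. The results without the 5S array and without the chromosome 4 stretch were added after seeing the data. What depth limits was not tested by thinning.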
